A study of Drosophila melanogaster with 4 samples.

Results

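Abrupt (Ab), a BTB-zinc finger transcription factor of Drosophila melanogaster, was immunoprecipitated from eye/antennal imaginal discs of larvae about 5 days old. These discs are larval epithelia from which the eyes and antennae of the adult develop. The DNA bound to Ab was sequenced (ChIP-Seq). The data described here are the Ab peaks in the genome browser windows drawn for 5 ecdysone-response genes, ftz-f1, Blimp-1, E23, ImpE1 and ImpL3. These windows span 148748 bp of the dm3 genome and held 35 of the 8881 peaks called in ab and 31 of the 10892 peaks called in scrib-+ab. The windows were drawn for genes picked because of their peaks in these same libraries, so the number of peaks in them is a description and not evidence that Ab prefers these genes. The nearest peaks left out were ab peaks 808 bp beyond the edge of the ftz-f1 window and 938 bp beyond that of ImpE1, and at every other edge the nearest peak of either list lay at least 2529 bp away.

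The ab sample came from mosaic discs in which clones overexpressed ab from a UAS-ab transgene. The scrib-+ab sample came from mosaic discs in which the clones also lacked scrib, a cell polarity gene, through homozygosity for the scrib1 allele on FRT82B. In both, clones were induced with FLP recombinase from the eyeless promoter in eye/antennal discs and the transgene was driven by Tub-GAL4 inside the clones, yet whole mosaic discs were extracted, so tissue outside the clones and its endogenous Ab are part of each library. About 100 discs entered each immunoprecipitation, and each genotype gave 1 pull-down library, made from 3 to 6 pooled immunoprecipitations, and 1 input library that entered the peak calling but was not analysed here on its own. With no replicate library, no difference between the genotypes could be tested against replicate error, and the exact (Clopper-Pearson) 95% intervals given for shares cover counting error only. The lists hold no read counts, so the reads behind a peak are unknown, and the size of a peak is given by its length and by the height of the read track drawn in its browser window.

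The steroid hormone ecdysone acts through the nuclear receptor EcR and its partner Usp, and each pulse sets off a cascade in which early genes encode transcription factors that switch later genes on or off. Blimp-1, a zinc finger repressor that is itself induced by ecdysone, represses ftz-f1 and so times the appearance of the nuclear receptor Ftz-f1, which makes prepupal tissue competent to answer the next pulse. E23 encodes an ABC transporter induced by ecdysone and known to dampen the ecdysone response. ImpE1 and ImpL3 were found as ecdysone-inducible transcripts of imaginal discs, ImpE1 encoding a protein with LDL receptor-like repeats and ImpL3 (Ldh in the Release 6 RefSeq gene table) encoding lactate dehydrogenase, the enzyme that converts pyruvate and lactate. By the grouping made from peaks and expression arrays, ftz-f1, Blimp-1 and ImpE1 belong to Class 2. Genes of this class have peaks in both genotypes and a transcript change that passed the study's array cutoff in scrib-+ab alone. By quantitative PCR, the study found the Blimp-1 transcript repressed in ab discs too, and repressed further in scrib-+ab. ImpL3 belongs to Class 4, with peaks and a transcript change past the cutoff in scrib-+ab alone. The classes count only peaks in introns or up to 500 bp upstream of a start site. E23 is among the genes drawn from Classes 1 to 4, but which of them it belongs to was not used here.

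The peaks were spread unevenly over the 5 genes, and most lay outside promoter regions. The places differ in how many bases they cover, so counts by place are no measure of peak density. A peak was placed in the promoter region when at least 1 bp of it lay between a drawn start site and 500 bp upstream, and otherwise in an intron, an exon, further upstream or downstream. Of the 35 ab peaks, 5 lay in a promoter region, 17 in an intron, 1 in an exon alone and 12 upstream of the promoter region. Of the 31 scrib-+ab peaks, 2 lay in a promoter region, 18 in an intron, 5 in an exon alone, 5 further upstream and 1 downstream. The upstream group held 9 ab peaks of Blimp-1, 2 of ImpE1 and 1 of ImpL3, against 1, 3 and 1 in scrib-+ab, while ftz-f1 and E23 had none there. In both genotypes, ftz-f1, Blimp-1, E23 and ImpE1 had 1 or more peaks in promoter regions or introns and ImpL3 had none, which gives 4 of 5 genes each. That call was thin for ImpE1, as described with its peaks.

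**Figure D1:**
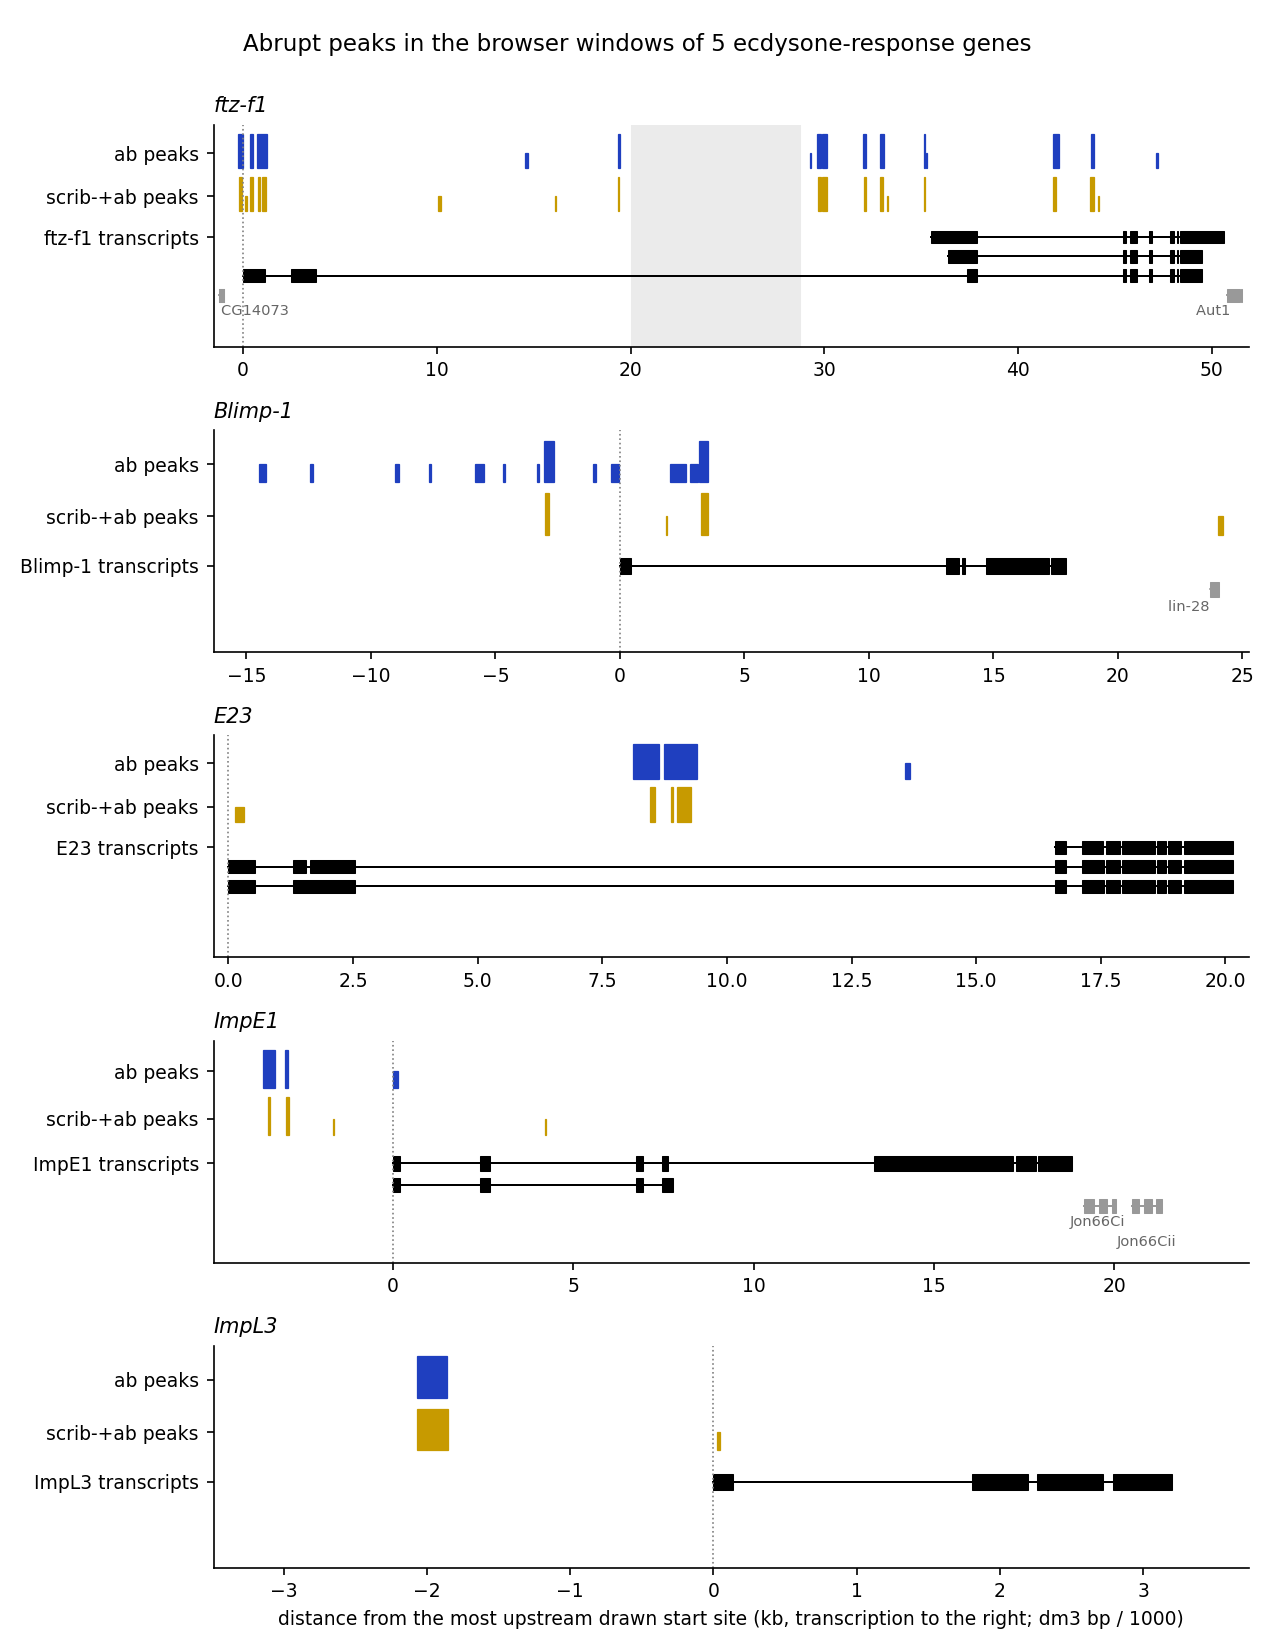
Place of every Ab peak in the 5 windows, with distance from the most upstream drawn start site of each gene in kb on the x axis and transcription running to the right. Blue bars are ab peaks and ochre bars scrib-+ab peaks, tall where the peak had at least 1 bp in common with a peak of the other genotype and short where it had none. Black boxes are exons of the drawn transcripts of each gene, grey boxes are exons of other genes, and the grey band marks the 8663 bp of ftz-f1 where neither read track was drawn. Blimp-1 shows 11 short ab bars against 2 short scrib-+ab bars, and the tall pair of ImpL3 stands upstream of the gene.

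The share of peaks in common between the genotypes was near that of the whole lists, with a lower share of the ab peaks at Blimp-1. A peak was called shared when it had at least 1 bp in common with a peak of the other list. In ab, 18 of 35 peaks were shared, 51.4% (95% interval 34 to 68.6%), against 59.1% of all ab peaks. In scrib-+ab, 20 of 31 were shared, 64.5% (45.4 to 80.8%), against 58.2% of all scrib-+ab peaks. Both intervals include the share over the whole list. By gene, 11 of 15 ab peaks were shared at ftz-f1, 2 of 3 at E23, 2 of 3 at ImpE1 and the single one at ImpL3, but 2 of 13 at Blimp-1, 15.4% (1.92 to 45.4%), an interval that lies below the share over all ab peaks. Of the scrib-+ab peaks at Blimp-1, 2 of 4 were shared, 50% (6.76 to 93.2%), and with 4 scrib-+ab peaks in the window few of the 13 ab peaks could have a partner, so the low ab share largely restates the difference in counts. Neighbouring peaks of a gene are not independent draws, so the interval of the ab share at Blimp-1 is if anything too narrow. Nor does that interval allow for Blimp-1 being the gene with the lowest ab share.

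ftz-f1 held the most peaks of the 5 genes, 15 in ab and 17 in scrib-+ab, over a window of 52.86 kb on 3L from 18742749 to 18795606. It is drawn on the minus strand with a long transcript that starts at 18794375 and shorter transcripts that start at 18758843 and 18758007 inside the 33641 bp intron of the long one. No peak lay outside the gene and its promoter regions. In each genotype 14 peaks lay in a promoter region or an intron, with 1 ab peak and 3 scrib-+ab peaks in exons alone. Peaks fell into 20 separate regions once overlapping peaks of both lists were joined, 11 called in both genotypes, 4 in ab alone and 5 in scrib-+ab alone.

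At the long start site of ftz-f1, 3 ab peaks and 5 scrib-+ab peaks lay between 18793168 and 18794650. The tallest ab peak of the gene, 475 bp from 18793168 to 18793642 across the end of the noncoding first exon and the intron after it, overlapped 2 scrib-+ab peaks of 238 bp and 101 bp, and the drawn tracks, on a scale of 1 to 100, reached 70.6 in ab and 33.6 in scrib-+ab. Inside the first exon an ab peak of 141 bp from 18793872 and a scrib-+ab peak of 139 bp from 18793884 covered nearly the same bases, at heights of 38.7 and 19.5. The promoter peak ran 268 bp from 18794383 to 18794650 in ab and 136 bp from 18794458 to 18794593 in scrib-+ab, at heights of 35.5 and 22.1. In ab it lay 8 bp upstream of the start site at its nearest. That is less than 1 pixel of the picture, 44 bp, so whether it crosses the start site is not resolved. One more exon peak, 100 bp from 18794164 to 18794263, was called in scrib-+ab alone, and there the scrib-+ab track was the higher, at 26.5 against 22.1. The start of the long transcript was thus covered in both genotypes, by longer and taller peaks in ab at 3 of its 4 regions.

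At the shorter transcripts of ftz-f1 the promoter peaks were small. Upstream of the start site at 18758843, ab had a peak of 39 bp (18759079 to 18759117) and one of 63 bp (18759184 to 18759246), and scrib-+ab had 1 peak of 37 bp (18759192 to 18759228) that overlapped the second. At the shared region the tracks reached 24 in ab and 17.6 in scrib-+ab, and at the 39 bp peak 19.5 and 9.94. The start site at 18758007 had no peak in its promoter region in either genotype. Bases that are promoter for the 18758843 transcript are also intron of the long transcript, so these peaks have both places.

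Within the long intron of ftz-f1, a run of 6 regions lay from 2235 to 6193 bp upstream of the 18758843 start site. Of these, 4 were called in both genotypes, at heights in ab and scrib-+ab of 41.2 and 27.8 (ab peak of 198 bp from 18761315), 23.4 and 31.7 (158 bp from 18762228), 35.5 and 28.5 (258 bp from 18764224), and 36.8 and 22.7 (228 bp from 18764534). The region of the peak at 18762228 was the only one of the 11 shared regions of ftz-f1 where the scrib-+ab track was the higher. An ab peak of 52 bp from 18765036 and a scrib-+ab peak of 38 bp from 18761078 were called in 1 list each, and at the latter the ab track, uncalled, stood above the scrib-+ab track, at 21.4 against 17. From 18765616 to 18774278, 8663 bp, neither track was drawn and neither list had a peak. The cause of that gap was not tested. Outside it the window held 0.339 ab peaks and 0.385 scrib-+ab peaks per kb.

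Between the undrawn stretch and the long start site the intron of ftz-f1 held few peaks, and most were called in 1 genotype. The shared one, 93 bp in ab from 18774937 and 82 bp in scrib-+ab from 18774951, reached 25.9 and 22.1. An ab peak of 137 bp from 18779690 (26.5 in ab, 17.6 in scrib-+ab) and scrib-+ab peaks of 71 bp from 18778212 (10.6 and 15.7) and 124 bp from 18784184 (11.2 and 17.6) had no partner, the nearest peak of the other list being 1407, 1407 and 4357 bp away. On the other side of the shorter start sites, in the introns that all 3 transcripts share, ab had peaks of 134 bp (18747136), 185 bp (18750437) and 320 bp (18752271), and scrib-+ab had 46 bp (18750192), 190 bp (18750454) and 156 bp (18752386). The last pair of these reached 43.2 in ab and 25.3 in scrib-+ab, the second highest ab value at the gene.

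Blimp-1 was the gene with the widest gap between the genotypes, 13 ab peaks against 4 scrib-+ab peaks in 40.98 kb of 3L from 5608087 to 5649064. On the plus strand from a start site at 5624104 to 5642025, the gene has a first intron of 12651 bp that held every intronic peak, and its upstream flank held most of the rest. The ab peaks covered 3290 bp, 8.03% of the window, and the scrib-+ab peaks 674 bp, 1.64%. Over the whole of 3L the 2 lists covered 1.51% and 0.901%. The difference in peaks has no replicate check. Separate ChIP with quantitative PCR in the study found enrichment over control IgG at Blimp-1 and ftz-f1 in both genotypes. Those measurements do not check the number or extent of peaks. The ab track reached 26.5 outside peaks in this window, and 9 of the 13 ab peaks stood above that height, as did all 4 scrib-+ab peaks above their own highest track outside peaks, 15.1.

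Upstream of Blimp-1, 9 ab peaks were strung out from 14191 to 977 bp before the start site. The tallest was 165 bp long, from 5615070 to 5615234, where the tracks reached 58.5 in ab and 17.6 in scrib-+ab, a ratio of 3.32 and the largest of all 46 joined regions. Peaks of 286 bp (5609628), 383 bp (5618282) and 395 bp (5621052) reached 36.1, 38.7 and 55.9 in ab against 12.5, 14.4 and 20.8 in scrib-+ab. Only the last was shared, with a scrib-+ab peak of 143 bp from 5621105 to 5621247 that lay wholly inside it. The other 5 upstream ab peaks were 42 to 114 bp long, with ab heights of 17.6 to 28.5 and scrib-+ab heights of 6.75 to 15.7.

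The promoter region of Blimp-1 was called in ab alone. The peak was 324 bp long, from 5623749 to 5624072, ended 32 bp before the start site as read and lay entirely in the promoter region. That distance is less than 1 pixel of the picture, 34 bp, so whether the peak crosses the start site is not resolved. The tracks there reached 31 in ab and 13.8 in scrib-+ab, and the nearest scrib-+ab peak was 1891 bp away. In the first intron, 3 ab peaks stood close together, of 662 bp (5626102 to 5626763), 309 bp (5626922 to 5627230) and 365 bp (5627285 to 5627649), with gaps of 158 and 54 bp between them. The 662 bp peak was the longest in the 5 windows and longer than or as long as 98.3% of all ab peaks, yet no scrib-+ab peak overlapped it, and its heights were 40 in ab and 14.4 in scrib-+ab. The third of the group was shared with a scrib-+ab peak of 274 bp from 5627372 to 5627645, at heights of 47.6 and 29.1.

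The 2 remaining scrib-+ab peaks of the Blimp-1 window lay where ab had none. One of 34 bp in the first intron, from 5625964 to 5625997, lay 104 bp from the long ab peak and had equal tracks within the reading step of the picture, 17 in ab and 17.6 in scrib-+ab. The other, 223 bp from 5648115 to 5648337, lay 24011 bp from the Blimp-1 start site, over the end of the first drawn exon of the next gene, lin-28, and past it. Its tracks reached 25.3 in ab and 29.1 in scrib-+ab, so the ab track rose there too without a called peak. Of the 4 scrib-+ab peaks, 2 were thus in the intron of Blimp-1, 1 was upstream and 1 belonged by position to lin-28, whose product is an RNA-binding protein.

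E23 had few peaks, and all of its ab peaks were intronic. Its window spans 20.17 kb of 2L from 3334848 to 3355018, and the gene, on the minus strand, reaches both edges. The start sites of its 2 long transcripts are drawn at the right edge and were taken to lie there, and a shorter transcript starts at 3338446. Its promoter region therefore lies outside the window, but the next peaks beyond that edge were 17538 bp away in ab and 17506 bp in scrib-+ab. The short transcript had no peak of either genotype in its promoter region or its introns.

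A pair of adjoining ab peaks lay in the long intron of E23, 8746 and 8116 bp downstream of the long start site. The first, 644 bp from 3345629 to 3346272, overlapped scrib-+ab peaks of 294 bp (3345731 to 3346024) and 42 bp (3346101 to 3346142), and the tracks reached 85.3 in ab and 43.2 in scrib-+ab. The second, 524 bp from 3346379 to 3346902, overlapped a scrib-+ab peak of 90 bp (3346467 to 3346556), at heights of 35.5 and 27.2. They were longer than or as long as 98.1% and 95.9% of all ab peaks, so the site was among the longest of the ab list and was called as 3 shorter pieces in scrib-+ab. An ab peak of 99 bp from 3341356 in the same intron had no partner, at 30.4 in ab and 13.1 in scrib-+ab. A scrib-+ab peak of 166 bp from 3354714 to 3354879, 139 bp inside the first exon as drawn, had none either, at 13.8 in ab and 20.8 in scrib-+ab.

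ImpE1 had its shared peaks upstream and none of its promoter or intron peaks shared. The window covers 28.11 kb of 3L from 8360809 to 8388922, with the gene on the plus strand from 8365491. The shared ab peaks ended 3268 and 2914 bp before the start site. The first was 333 bp in ab, from 8361891 to 8362223, and 45 bp in scrib-+ab, from 8362022 to 8362066, the largest length ratio of all pairs in the windows, 7.4, with heights of 50.8 and 18.9. The second was 96 bp in ab, from 8362482, and 71 bp in scrib-+ab, from 8362520, with heights of 22.7 and 24.6. At neighbouring sites 258 bp apart in ab, the first was thus far taller in ab and the second slightly taller in scrib-+ab.

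The peaks that give ImpE1 a promoter or intron call were different in each genotype. In ab it was a peak of 143 bp from 8365476 to 8365618 that spans the start site, of which 15 bp (10.5%) lay in the promoter region and the rest in the noncoding first exon. Its tracks reached 21.4 in ab and 14.4 in scrib-+ab. If the gene model was moved by 1 pixel of the picture to the left, or the midpoint of a peak decided its place, that call was lost and 3 genes had a promoter or intron peak in ab. In scrib-+ab it was an intronic peak of 28 bp from 8369693 to 8369720, 4202 bp after the start site, at heights of 13.1 in ab and 15.1 in scrib-+ab. Without peaks under 40 bp, 3 genes were left in scrib-+ab as well. A further scrib-+ab peak of 33 bp at 8363820, 1639 bp upstream, was called in scrib-+ab alone although the ab track stood higher there, at 21.4 against 18.9.

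The ImpE1 window also held the tallest ab signal outside any peak. Near 8388197, beyond the 3′ end of ImpE1 and past the serine protease genes Jon66Ci and Jon66Cii drawn after it, the ab track reached 34.9 without a called peak, above the heights at 2 of the 3 ab peaks in the window. In scrib-+ab the highest track outside peaks in this window was 20.2, above 3 of its 4 peaks. For the small ImpE1 peaks, height in the drawn tracks did not separate called from uncalled stretches.

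ImpL3 had the tallest site of the 5 genes, and it lay outside both the promoter region and the introns. The window is the shortest, 6.627 kb of 3L from 6252349 to 6258975, with the gene on the minus strand from a start site at 6255786 to 6252587. The ab peak ran 209 bp from 6257645 to 6257853 and the scrib-+ab peak 218 bp from 6257637 to 6257854, which contained it. They lay 1859 and 1851 bp upstream of the start site at their nearest. The tracks reached 87.9 in ab and 66.8 in scrib-+ab, the highest values of each genotype at any of the 46 regions, over medians outside peaks of 5.47 and 4.83 in the same window.

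The only other peak at ImpL3 was called in scrib-+ab, 22 bp from 6255741 to 6255762, in the noncoding first exon 24 bp after the start site. Just 1.94% of all scrib-+ab peaks were as short or shorter. The tracks there stood at 15.1 in ab and 17 in scrib-+ab, 3 pixels of the picture apart, and the highest scrib-+ab track outside peaks in this window was 16.3. When peaks in exons were counted as well, ImpL3 joined the list of bound genes in scrib-+ab and not in ab, giving 5 and 4 genes. With promoter regions of 250 or 1000 bp it stayed out in both genotypes. The promoter or intron peak that Class 4 calls for in scrib-+ab was thus not found with the gene model as drawn. The reason was not tested. ImpL3 thus had 1 tall site of nearly equal extent in both genotypes and 1 very short peak in scrib-+ab alone.

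**Figure D2:**
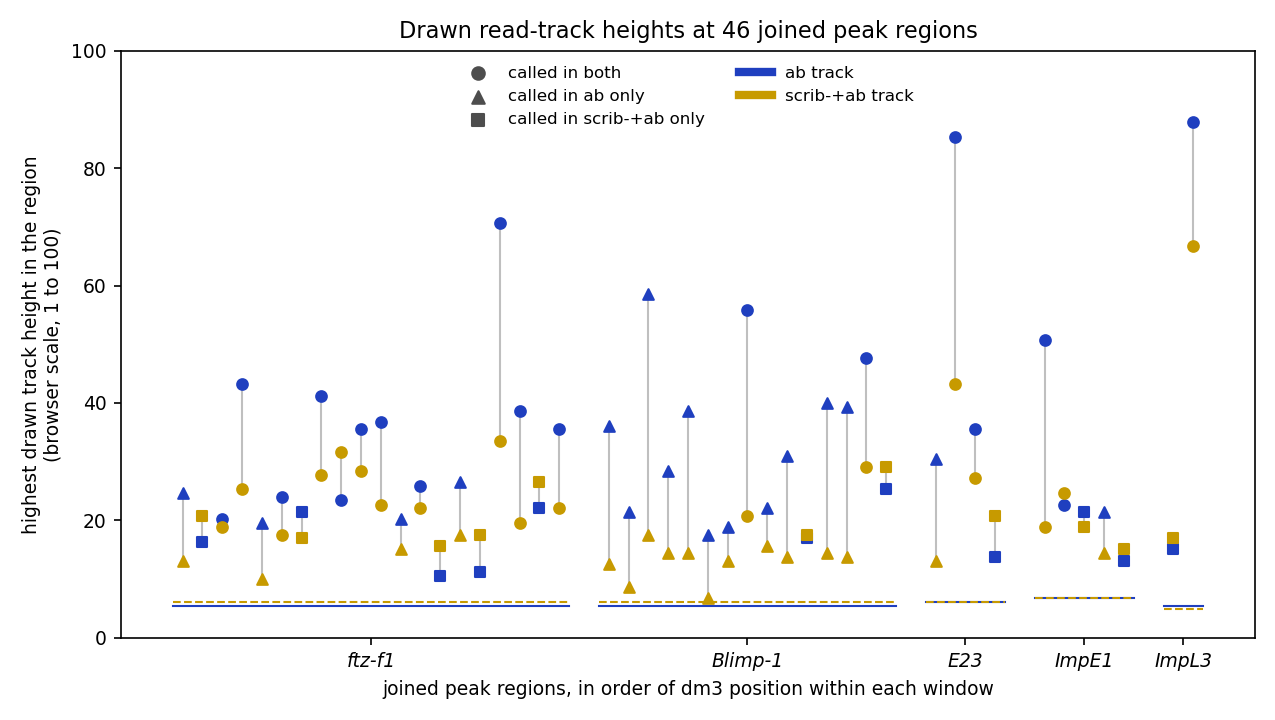
Highest drawn height of each read track, on the browser scale of 1 to 100, at the 46 regions formed by joining overlapping peaks, ordered by position within each gene. Blue marks are the ab track and ochre marks the scrib-+ab track, grey lines join the marks of 1 region, and horizontal lines give the median of each track outside peaks in that window. The ab track was the higher at 35 of 46 regions, and the ImpL3 site at 87.9 and 66.8 was the highest in both tracks.

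Over all 46 joined regions the ab track was the higher at 35, 76.1% (61.2 to 87.4%). The same reads gave both the calls and the tracks, so heights follow the calls by construction and are given as a description. Of 18 regions called in both genotypes, the ab track was the higher at 16, with a median ratio of ab to scrib-+ab of 1.54 and a range of 0.738 to 2.69. At the 17 regions called in ab alone it was the higher at all, with a median ratio of 2.25, and at the 11 called in scrib-+ab alone it was the higher at 2, with a median ratio of 0.868. Blimp-1 had the highest median ratio by gene over its 15 regions, 2.47, and ImpL3 the lowest over its 2, 1.1. The read totals stated for the pull-downs in the study's methods are nearly equal, and whether the drawn tracks were scaled to them is not given in the sources used here. The medians outside peaks were alike in both tracks, from 5.47 to 6.75 in ab and from 4.83 to 6.75 in scrib-+ab.

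At peaks called in 1 genotype alone, the track of the other genotype ranged from the level outside peaks to the height of called peaks. At the 17 regions called in ab alone the scrib-+ab track reached 6.75 to 17.6, with a median of 13.8, and at the 11 regions called in scrib-+ab alone the ab track reached 10.6 to 25.3, with a median of 16.3. The lowest scrib-+ab value, at the 70 bp ab peak of Blimp-1 from 5619405, was 1 pixel above the median of that track outside peaks, 6.11, and below its 95th percentile, 10.6. The peaks' own tracks had medians of 26.5 and 17.6 at these regions. The highest point of a region was read here against single columns outside peaks, so these values are a description with no test.

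**Figure D3:**
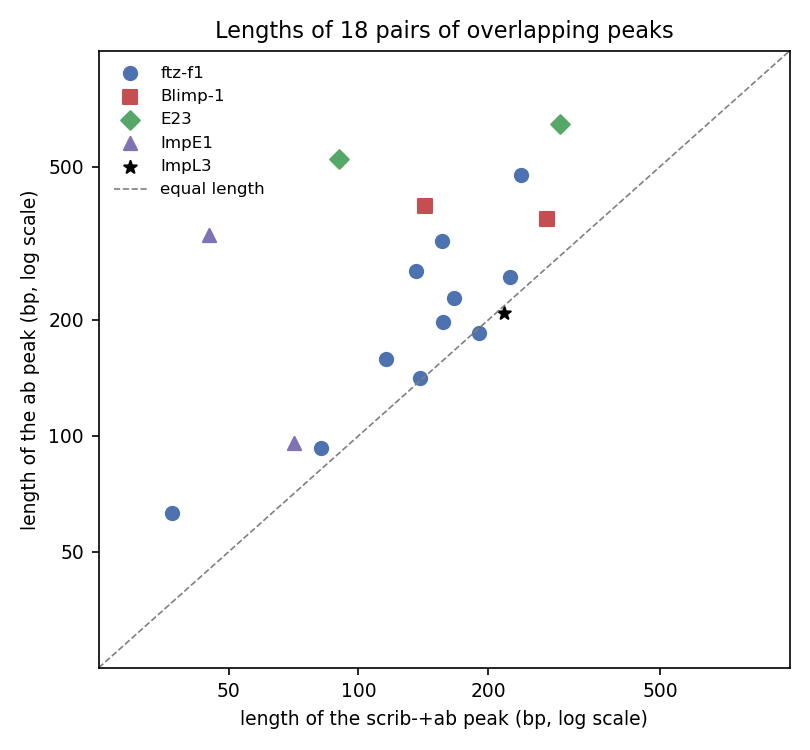
Length in bp of the ab peak (y axis) against the scrib-+ab peak (x axis) for the 18 pairs of peaks with the longest mutual overlap, both on log scales, with the line of equal length dashed. In 16 of 18 pairs the ab peak was the longer, and 1 pair each of ftz-f1 and ImpL3 lay just below the line.

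Paired peaks were mostly longer in ab, at about the rate seen in the whole genome. Of 18 pairs of peaks that had their longest overlap with each other, the ab peak was the longer in 16, 88.9% (65.3 to 98.6%), against 82.7% of 5179 such pairs over all arms. The median ratio of lengths was 1.36, and it was 1.73 over all arms. At ftz-f1 the ratios stayed between 0.974 and 2.05 over 11 pairs, while the E23 and ImpE1 pairs reached 5.82 and 7.4. The exceptions were the ImpL3 pair (209 and 218 bp) and the ftz-f1 pair at 18750437 (185 and 190 bp), which differed by a few bases. The ab list has the longer peaks throughout, with a median of 151 bp against 69 bp in scrib-+ab, so longer ab peaks are not particular to these genes.

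**Figure D4:**
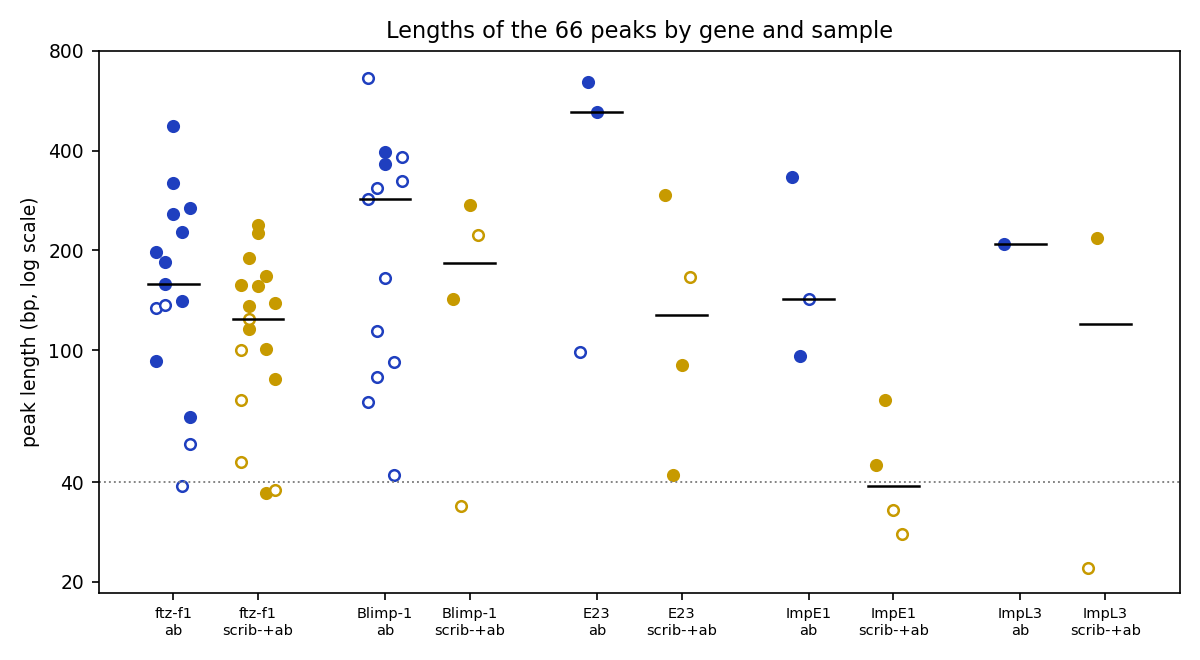
Length in bp, on a log scale, of each of the 66 peaks by gene and genotype, with blue for ab and ochre for scrib-+ab. Filled points are shared peaks, open points peaks of 1 genotype alone, black lines medians, and the dotted line 40 bp. Of the 7 peaks under 40 bp, 6 were scrib-+ab peaks and 1 was an ab peak of ftz-f1.

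Short peaks were mostly scrib-+ab peaks without a partner. Under 40 bp, the read length set in the peak calling, lay 1 of 35 ab peaks and 6 of 31 scrib-+ab peaks, against 2.65% and 23.3% of the whole lists. Both shares were near those of the whole lists, so short peaks are not particular to these windows. The share of short peaks without a partner over the whole lists is not given here. Of the 6, 1 was shared, at the shorter promoter of ftz-f1, and the others lay in the introns of ftz-f1, Blimp-1 and ImpE1, upstream of ImpE1 and in the first exon of ImpL3. Shared scrib-+ab peaks had a median length of 141 bp and unshared ones 46 bp, and in ab the medians were 243 and 134 bp. Over the whole lists the same medians were 94 and 48 bp in scrib-+ab and 196 and 104 bp in ab, so shared peaks were the longer ones there too. Longer peaks also stood higher. Spearman's rho between length and own track was 0.762 over the 35 ab peaks and 0.719 over the 31 scrib-+ab peaks. These points share a library and, in part, a window. Height was the highest column within a peak, and the same reads set length and height, so this relation is partly built in.

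Beside these genes, 6 other ecdysone-response genes were drawn in such windows, br, Eip75B, Hr39, Eip63E, Eip63F-1 and ImpE3. Their windows held 59 ab peaks and 70 scrib-+ab peaks, of which 35 and 49 were shared. Over the whole lists 59.1% of the ab peaks and 58.2% of the scrib-+ab peaks were shared. Of the 11 genes, only Blimp-1 and Eip63E had more ab peaks than scrib-+ab peaks, 13 against 4 and 5 against 3, and Eip63F-1 had 1 of each. The windows of Eip63E, at 81.8 bp per pixel, and Eip63F-1 were placed by the drawn ruler alone. Too few of their drawn bars matched listed peaks to check that place. In the other 8 windows scrib-+ab had 1 to 6 peaks more than ab. The scrib-+ab list is the larger as a whole, 10892 peaks against 8881, so more scrib-+ab peaks are not particular to these windows. Peak density ran from 0.037 per kb at Eip63F-1 to 0.599 per kb in the short window of ImpE3 in ab, with ftz-f1 at 0.284 and Blimp-1 at 0.317, and over all of 3L it was 0.0771.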

How the data were processed

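ChIP-Seq reads from 1 Ab pull-down per genotype were aligned by the authors to dm3 with Bowtie at default settings, and peaks were called against input with PeakSeq (read length 40, maximum gap 40, minimum FDR 0.01, p-value threshold 0.0001). Versions are not given in the sources used here. The deposited peak lists give arm, start and end, and the score deposited by the authors is a constant 1. Starts were converted to count from 1.

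No dm3 annotation was used. Windows, gene models and track heights were read by script from the published browser pictures (5.54 to 44 bp per pixel, 0.639 height units per pixel), calibrated on the drawn peak bars, which fell within 1.2 pixels of the listed peaks. The peaks themselves come from the lists. Gene names and order were checked in the RefSeq Release 6 table. Reads per peak are unknown.

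The promoter region is the start site to 500 bp upstream, as in the study's methods. Every peak in the 5 windows was named, and the other ecdysone-response genes were given by counts only. Members and gene lists were chosen with earlier results of these data known. Overlap, sharing and joining were tested on simulated intervals. Alternatives were other overlaps, lengths, windows, promoter sizes, model shifts and height measures. Scripts ran in Python 3.11.15 (SciPy 1.17.1 and NumPy 2.4.6), pictures were read with Pillow 12.0.0 and plots made with Matplotlib 3.10.9. Nothing was tested between genotypes.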

Additional observations from a re-analysis of the deposited data

How the results depend on the processing

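Of 37 recomputed values, 35 stayed within 1.5 times the count, or within the 95% interval of the share, given in the report. These limits are wide, and gene counts of 3 to 5 all lie within them, so the tally is no measure of robustness. With the longer 50% of each list, the windows held 20 ab peaks in place of 35, since fewer peaks entered, and 22 scrib-+ab peaks in place of 31. With a reciprocal overlap of 50%, 41.9% of the scrib-+ab peaks were shared in place of 64.5%, and 37.1% of the ab peaks in place of 51.4%, because peaks of unequal length then fail. With windows widened by 5000 bp on each side they held 46 ab peaks and 36 scrib-+ab peaks. Joining peaks within 200 bp left 29 and 26. The number of genes with a promoter or intron peak stayed between 3 and 4 in ab and between 3 and 5 in scrib-+ab, and the genes that moved were ImpE1 and ImpL3. The share of regions with the higher ab track was 76.1 to 78.3% by every height measure, including 1 chosen after seeing the data, which read 1 pixel more on either side. No paired analysis was possible because each genotype has 1 pull-down library, and no library could be left out. The pictures resolve 5.54 bp per pixel at ImpL3 and 44 bp per pixel at ftz-f1, so the heights of the shortest ftz-f1 peaks rest on the fewest pixels for their length.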
